A study of Mus musculus with 8 samples.

Results

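MC/9 is a continuously growing mouse mast cell line. Its transcriptome was read on the 4 arrays labelled as biological replicates 1 to 4 of mast cell RNA, out of 8 arrays in the series. The other 4 arrays, which carry RNA of exosomes from the same cells, were left out of every value below except 1 alternative fit. Total RNA was taken from the cells with Trizol, turned into biotin-labelled cRNA from 5 µg, and hybridised to Affymetrix Mouse430_2 arrays, which hold 45101 probe sets. Per the labels' protocols the cells grew in Dulbecco's modified Eagle's medium with 10% fetal bovine serum, 2-mercaptoethanol and 10% of a rat T cell supplement made with concanavalin A. The labels give all 4 arrays 1 condition, with no gene altered and no agent that differs between them. They are of 1 line, and nothing in the labels says whether the 4 RNA samples came from separate cultures. Replicates 1 and 2 were hybridised on one date (date 1) and replicates 3 and 4 on another (date 2), per the file headers.

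Mast cells are tissue immune cells that carry IgE on the high-affinity receptor FcεRI and release stored granules when antigen crosslinks it. The granules hold proteases, histamine and, in rodents, serotonin, packed on the proteoglycan serglycin, and activated cells also make leukotrienes, prostaglandins and cytokines. Growth depends on stem cell factor acting on the receptor tyrosine kinase Kit and on interleukin 3. The questions asked of the 4 arrays were which of these components the line transcribes, which it lacks, and which genes differ from array to array.

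The arrays differed in quality measures by date. Each array is scaled to the same trimmed mean, so the median signal of 13.7 and 14.8 on date 1 against 8.80 and 9.46 on date 2 describes the shape of the distribution. Added bacterial hybridisation controls read 568 and 523 on date 1 and 779 and 801 on date 2. Poly-A controls read 187 and 184 on date 1 and 20.4 and 47.9 on date 2. The ratio of 3′ to 5′ probe sets of Actb, a measure of RNA and cRNA length, was 1.48 and 1.40 on date 1 and 2.01 and 2.39 on date 2. For Gapdh it was 0.853 and 0.811 on date 1 and 0.979 and 1.20 on date 2. The date also coincided with the fluidics station, so date, station, extraction and culture cannot be told apart.

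A gene was counted as above the detection floor when any of its probe sets exceeded the 95th percentile of 150 background probe sets on that array, which are sensory receptors, keratin-associated proteins and beta-defensins. The floors were 13.5, 16.5, 10.5 and 12.2 on replicates 1 to 4. By this measure 9305 of 18193 named genes (51.1%) lay above the floor on all 4 arrays, 6582 (36.2%) on none and 2306 on some. Of the 150 background probe sets themselves, 2 passed on all 4 arrays. A gene under the floor was not measurable at this sensitivity, which is not evidence that the transcript is absent. Lists of genes with a known role are read below against the 51.1% of all genes.

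All 5 genes used to check the label lay far above the floor on every array. Fcer1a, the IgE-binding alpha chain of FcεRI, gave signals of 7833, 8283, 8440.0 and 9268 on replicates 1 to 4. Ms4a2, its beta chain, gave 4773, 4765, 5227 and 5663. Cpa3, mast cell carboxypeptidase, gave 7404, 8112, 9274 and 9008. The alpha and beta chains of the receptor and the carboxypeptidase were high on all arrays with no array standing apart. Cma1, the chymase mast cell protease 5, read 7704, 7994, 5267 and 5986, and Kit read 2735, 2924, 1386 and 1473, both with the arrays of date 2 below those of date 1.

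The top of the signal ranking held mostly the translation apparatus, with 2 mast cell genes among it. Ribosomal protein genes were 15 of the 20 genes with the highest mean signal, 31 of the top 50 and 34 of the top 100. The first 20 were Rpl38, Rplp2, Rps3a1, Tpt1, Rpl41, Rps29, Eef1a1, Fcer1a, Cpa3, Rps18, Rpl10a, Rpl13a, Rpl35, Rpl37a, Rpl4, Rplp0, Rpl22, Rps28, Rps4x and B2m, in this order. Apart from ribosomal proteins they hold Tpt1, a translationally controlled tumour protein, Eef1a1, the elongation factor that brings tRNA to the ribosome, the 2 mast cell genes, and B2m, the light chain of MHC class I. Rpl38 had the highest mean, 9856, with 8965, 9155, 10265 and 11037 on the 4 arrays, on an _x_at probe set, a type whose probes can also bind related sequences. Fcer1a and Cpa3 ranked 8 and 9 with mean signals of 8456 and 8449, Srgn ranked 33, Tph1 37, Cma1 38, Ms4a2 73 and Kit 344. A probe set's signal also depends on its probes, so these are ranks of signal and not of transcript number.

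**Figure D1:**
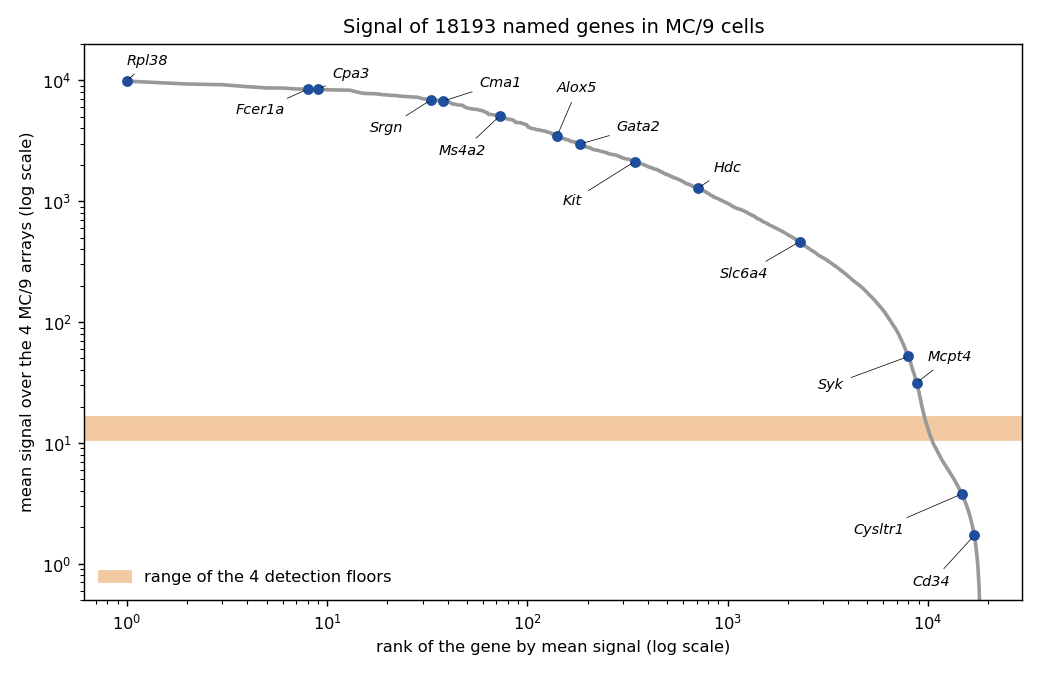
Mean signal of each named gene over the 4 MC/9 arrays (vertical axis, deposited units, log scale) against its rank (horizontal axis, log scale). The band is the range of the 4 detection floors, 10.5 to 16.5. Fcer1a and Cpa3 stand at ranks 8 and 9, while Cysltr1 and Cd34 lie under the band.

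The protease content was narrow: few members of the family were measured, and some of those read very high. Of 20 granule protease genes on the array, 7 were above the floor on all 4 arrays and 8 on none. Besides Cpa3 and Cma1, the tryptase mMCP-6 (Tpsb2) read 5051, 5155, 1356 and 1401. Granzyme B (Gzmb), a serine protease better known from cytotoxic lymphocytes, read 2208, 2028, 355 and 511. The membrane-anchored tryptase Tpsg1 read 1556, 1566, 313 and 329.6. In all 3 the date 1 arrays lay above the date 2 arrays with no overlap. Ctsc, the dipeptidyl peptidase that activates granule serine proteases, read 2234, 2694, 3149 and 3624. Of the chymases of mucosal mast cells, Mcpt1 was above the floor on no array and Mcpt2 was above it on all 4, at 265, 264, 23.8 and 17.6. The connective tissue chymase Mcpt4 and the basophil protease Mcpt8 passed the floor on date 1 alone, at 61.3 and 62.9 and at 39.8 and 39.8. Tpsab1, the tryptase mMCP-7, passed on 1 array. Cathepsin G (Ctsg) and granzymes A, C, D, E and K were under the floor on all 4 arrays.

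Enzymes and carriers for both granule amines were well above the floor. Tph1, the rate-limiting enzyme of serotonin synthesis outside the brain, read 6472, 6929.8, 6716 and 6871, with little spread between arrays. Hdc, which makes histamine from histidine, read 1126, 1164, 1442 and 1382 on its brighter probe set. Slc18a2, the vesicular transporter that loads amines into granules, read 1698, 1773, 1743 and 1802, and Ddc, which completes serotonin synthesis, read 1762, 1766, 1746 and 1936. The serotonin uptake transporter Slc6a4 read 819, 774, 122 and 133, lower on date 2. Maob, which breaks amines down, read 2793, 2578, 2249 and 2168, whereas Tph2, the neuronal hydroxylase, Slc18a1, the other vesicular transporter, and the histamine-degrading enzymes Hnmt and Aoc1 were above the floor on no array. Srgn, the serglycin core protein that binds these amines, read 6176, 6591, 6896 and 7902. Ndst2, the sulfotransferase needed to make mast cell heparin, read 1090.5, 1071, 537 and 521, again lower on date 2. In all, 19 of 25 genes for amines and proteoglycan passed on every array.

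**Figure D2:**
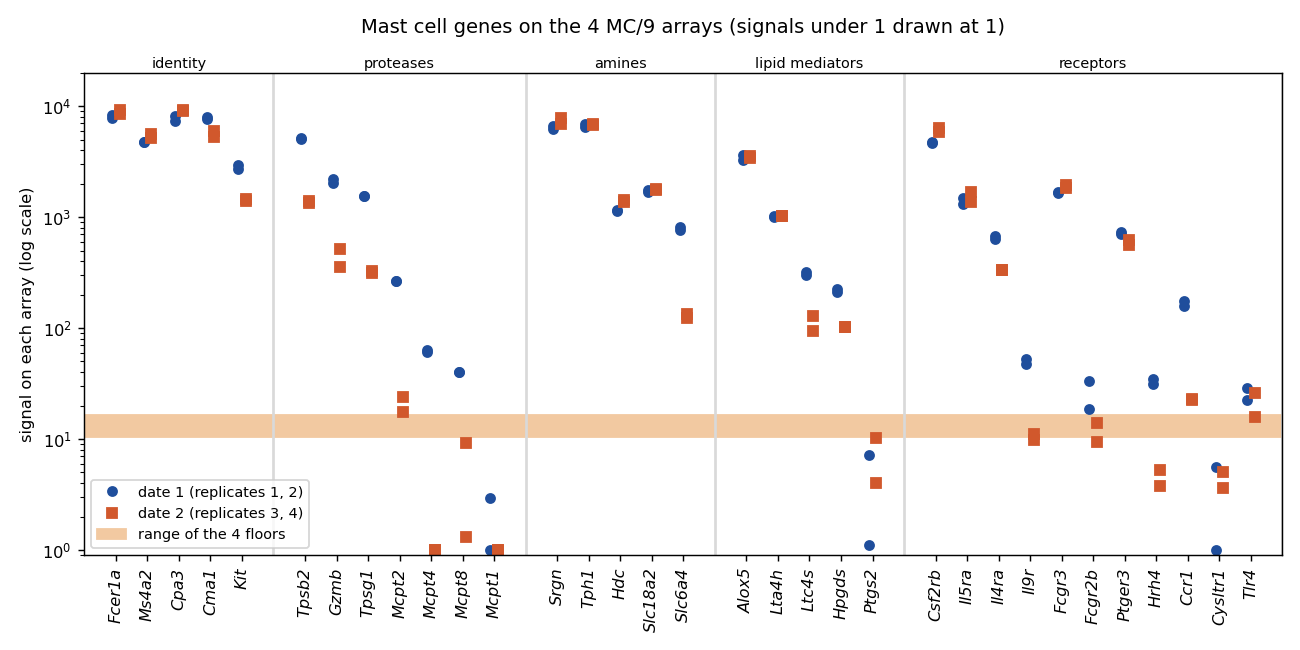
Signal on each array (vertical axis, deposited units, log scale) of genes for mast cell identity, granule proteases, amines, lipid mediators and receptors. Circles are the date 1 arrays, squares the date 2 arrays, and the band is the range of the 4 floors. Fcer1a, Tph1 and Alox5 lie at 1 level on both dates, Tpsb2, Gzmb, Slc6a4 and Ccr1 lie lower on date 2, and Ptgs2 and Cysltr1 stay under the floor.

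Enzymes of leukotriene synthesis were above the floor, and the inducible enzyme of prostaglandin synthesis was not. Alox5, the 5-lipoxygenase that starts leukotriene synthesis, read 3659, 3278, 3557 and 3451, and its activating protein Alox5ap read 2827, 2883, 2776 and 2876. Lta4h, which makes leukotriene B4, read 1022, 1005, 1026 and 1021, the steadiest values of the pathway. Ltc4s, which makes leukotriene C4, read 318, 302, 128 and 93.6. Pla2g4a, the cytosolic phospholipase that frees arachidonic acid, read 384, 406, 420.4 and 506, and Hpgds, the haematopoietic prostaglandin D synthase, read 213, 226, 103 and 103. Ltc4s and Hpgds were both lower on date 2. The inducible cyclooxygenase Ptgs2 was above the floor on no array, as were Alox12, Alox15, Tbxas1 and Ptgds. The other cyclooxygenase, Ptgs1, was not among the named genes and could not be read. Altogether 12 of 23 lipid mediator genes were above the floor on all 4 arrays, near the 51.1% of all genes.

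Nearly the whole chain from FcεRI to calcium was measured. Of 36 genes of IgE receptor signalling, 31 passed on all 4 arrays. Fcer1g, the signalling gamma chain, read 3120.0, 3117, 3658 and 3819. The adaptors Lat (1477 to 1633), Lcp2 (1405 to 1598) and Gab2 (843 to 1098) and the kinase Btk (859 to 972) had ranges over the 4 arrays of less than 1.5 times. Syk, the kinase that binds the gamma chain, was dimmer than these genes. Its brightest probe set read 54.8, 41.98, 56.6 and 54.2, still above the floor on each array. Fyn read 546, 538, 433 and 436, Plcg1 read 522, 469, 368 and 383 and Plcg2 read 486, 433, 591 and 572. Orai1, the pore of the store-operated calcium channel, ranged from 37.2 to 75.3. The GTPase exchange factor Rasgrp4, found mostly in mast cells, was above the floor at 121, 110.0, 104 and 64.9, while Rasgrp1, Vav3, Prkch and Pik3r5 were above it on no array.

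Of 32 genes for Fc and inhibitory receptors and their phosphatases and adaptors, 21 (65.6%) passed on all 4 arrays, against 51.1% of all genes. The phosphatases and adaptors among them, Ptpn6, Ptpn11, Inpp5d, Inpp5b, Dok1 and Dok2, all passed. Fcgr3, the low-affinity activating IgG receptor, read 1672, 1637, 1816 and 1933. Fcgr2b, its inhibitory partner, read 33.2, 18.8, 9.44 and 13.9 and was above the floor on 3 of 4 arrays. Cd200r4, Cd300a, Pirb and Milr1, paired or inhibitory receptors of myeloid cells, passed on all 4, with Cd300a at 744, 722, 413 and 391 and Pirb at 253, 247, 132 and 113. Cd47, the ligand of SIRPα, read 3212, 3018, 3099 and 3099.8. The phosphatases Inpp5d (SHIP1), at 1176 to 1502, and Ptpn6 (SHP-1), at 318 to 516, were above the floor throughout. Fcgr4, Fcer2a, Cd33, Siglece, Siglecf and Siglecg were above the floor on no array.

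Cytokine receptors passed at about the share of all genes, 51.9% against 51.1%. Of the interleukin 3, interleukin 5 and GM-CSF family, the shared beta chain Csf2rb read 4644, 4731, 5869 and 6406, and its interleukin 3-specific mouse relative Csf2rb2 read 3293, 3644, 3828 and 4751. These 2 genes are close copies, so their probe sets may share signal. Csf2ra, the GM-CSF alpha chain, read 2483, 2307, 2784 and 3049, and Il5ra, the interleukin 5 alpha chain, read 1327, 1501, 1365 and 1684. Il3ra, the interleukin 3 alpha chain, was near the floor but above it on all 4 arrays, at 29.00, 25.3, 20.2 and 15.5. Other receptors above the floor on every array included Crlf2, a chain of the TSLP receptor, at 997 to 1463, Tgfbr2 at 859.5 to 968, Il4ra at 677, 638, 332 and 334 and Il10ra at 312, 294, 105 and 129.5. Il9r, for a cytokine that promotes mast cell growth, passed on date 1 alone, at 52.7, 47.5, 9.80 and 11.1. Of 52 genes, 27 passed on all 4 arrays and 19 on none, among the latter Il1r1, Il18r1, Il6ra, Il2ra, Il13ra1, Csf3r and Lifr.

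Chemokine receptors were mostly under the floor, with 2 of 19 above the floor on all arrays and 14 on none. Ccr1, a receptor for CCL3 and CCL5, read 176, 159, 23.1 and 22.4. Ccrl2, an atypical receptor, read 81.03, 77.4, 84.8 and 75.6. Cxcr2, Cxcr4, Ccr2, Ccr3 and Ccr7 were under the floor on all 4 arrays. Receptors for lipid, purine and amine mediators were selective, with 17 of 45 above the floor throughout. Ptger3, the prostaglandin E receptor EP3, read 709, 742, 556 and 618. The ATP-gated channels P2rx4 (808 to 930.1), P2rx7 (474 to 577) and P2rx1 (155 to 318) were measured on every array, as was Adora3, the adenosine A3 receptor, at 275, 269, 153 and 182. The nuclear receptors Nr3c1, for glucocorticoids, at 1783, 2025, 652 and 687, and Ahr, for aryl hydrocarbons, at 1676, 1591, 1001 and 979, were lower on date 2. Hrh4, the histamine H4 receptor, passed on date 1 alone. The histamine H1 receptor, both cysteinyl leukotriene receptors, C5ar1, Tacr1 and Mrgprb1 were above the floor on no array.

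Innate sensors were measured in part. Of 31 pattern recognition genes, 14 passed on all 4 arrays. Tlr4 read 28.8, 22.3, 15.9 and 25.8 and its partner Ly96 read 64.97, 63.1, 58.97 and 39.3, above the floor on each array. Tlr6 was above it at 60.8 to 72.6, while Tlr2 passed on 2 arrays and Tlr3, Tlr5 and Tlr7 on none. The adaptors Myd88, at 249 to 338, and Pycard, at 612 to 685, were measured throughout. Of 38 integrin and adhesion genes 15 passed on all arrays. Itga2b (CD41) at 1745 to 2613, Itgb7 at 1707 to 2046, Itgb1 at 86.3 to 187 and Itga6 at 353, 348, 881 and 902 passed on every array, and Itga4, Itgam, Itgal, Itgax, Cd44 and Cd34 on none. The CD41 transcript is a megakaryocyte gene that also occurs in early blood progenitors.

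The machinery of granule release and the lysosomal enzymes were mostly measured. Of 45 exocytosis genes 30 passed on all arrays. Rab27b, a small GTPase of granule transport, read 2156, 2035, 1897 and 1763, with Vamp8, the SNARE of mast cell granules, at 839, 755, 761 and 714 and Snap23, the SNARE on the plasma membrane, at 375, 387, 292 and 331. Stxbp2 (Munc18-2) read 351, 357, 276 and 280.4, and the priming factors Unc13d and Unc13b ranged from 401 to 550.3 and from 402 to 490.2. None of these differed by more than 1.5 times between arrays. The neuronal forms Snap25, Unc13a and Syt9 were above the floor on no array. Among lysosomal and granule hydrolases 31 of 41 passed, with Npc2, a cholesterol carrier of the lysosome, at 2421 to 2834, Ctsd at 2495, 2559, 1438 and 1309.5 and Hexa, a subunit of the beta-hexosaminidase used as a degranulation marker, at 1188, 1138, 1133 and 1127. Cathepsins F, H, K, L and W were under the floor on all 4 arrays.

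The line made transcripts of a small set of secreted factors. Of 75 cytokine, chemokine and growth factor genes, 24 were above the floor on all 4 arrays and 41 on none. Ccl2, a monocyte attractant, read 2701, 2653, 1169 and 1178, the highest signal of the list. Tgfb1 followed at 1266, 1381, 1399 and 823, then Il6 at 402, 423, 187 and 241 and Osm at 409, 399, 225 and 195. Il4, a type 2 cytokine of mast cells, read 126, 109.6, 132 and 97.8, and Tnf read 71.2, 115, 66.8 and 31.5. Il13 passed on 2 arrays. Il3, Il5, Il9, Csf2, Kitl, Ifng and Ifnb1 were above the floor on no array.

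Of 72 haematopoietic transcription factors, 43 passed on all arrays, a share of 59.7% against 51.1% of all genes. Gata2, a factor required for mast cells, read 2767, 2199, 3535 and 3423, Mitf, which drives Kit and protease genes, read 1624, 1755, 1355 and 1452, and Tal1 read 1952, 1808, 2609 and 2655. Gata1, a factor of erythroid, megakaryocyte and mast cells, read 870.0, 830.3, 961 and 825, and Gfi1b and Nfe2 were above the floor throughout. Spi1 (PU.1), the factor of the myeloid branch, read 292, 243, 210.1 and 143. Id2 was among the brightest, at 2709, 2631, 3359.7 and 4234. Cebpa, Irf8, Irf4, Gata3, Pax5, Ebf1, Id1 and Id3 were above the floor on no array. In the JAK-STAT list 34 of 39 passed. Jak1 read 1977 to 2344, Jak2 read 509, 507, 722 and 727, Stat5a read 278, 294, 542 and 338 and Stat5b read 245, 218, 234 and 229, the transducers of interleukin 3 signals. Cish, a target of STAT5, was above the floor at 149.9, 164, 108 and 126.

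The marker lists of other blood and tissue cells passed on all 4 arrays at less than the 51.1% of all genes, apart from that of basophils (57.1%). No gene of the NK, neutrophil and fibroblast lists (7, 16 and 11 genes) was above the floor on all 4 arrays. The stem and progenitor list passed at 3 of 12, the endothelial list at 2 of 9 and the neural list at 1 of 10. Of the T cell list 1 of 14 passed, Zap70, at 46.4, 31.4, 13.6 and 23.8, with Cd3d, Cd3e and Cd3g above the floor on no array. The B cell list had 2 of 13, Blnk and Ighm. Of 19 macrophage and dendritic markers 2 passed, Cd14 at 44.1, 39.2, 33.9 and 43.8 and Csf1r at 26.9, 23.3, 26.1 and 19.1, while Lyz2, Mpeg1 and the C1q genes were under the floor on every array. The eosinophil list held only Il5ra of 7, and Epx and Prg2 were under the floor. Basophil markers were measured at 4 of 7, with Cyp11a1, the side-chain cleavage enzyme of steroid synthesis, at 2122, 1962, 1165 and 923. Megakaryocyte markers were measured at 4 of 10 (Pf4, Itga2b, Gp5 and Gp9), with 4 more above the floor on some arrays. The summed signal over the list ranged from 53.1 to 87.8 on an array for the neutrophil markers and from 135 to 177 for the macrophage markers. Erythroid markers passed at 4 of 12, among them the embryonic globins Hbb-y and Hbb-bh1, while the adult Hbb-b2 and Alas2 were above the floor on no array. In RNA of a whole culture, fewer cells of a type and less RNA per cell cannot be told apart. Of 33 Hox genes, 6 passed on all arrays and 22 on none.

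Of the sex-linked genes on the array, the Y-linked Kdm5d, at 65.2, 91.8, 74.96 and 98.4, and Uty, at 47.1, 52.4, 33.3 and 53.96, were above the floor on all 4 arrays, and Eif2s3y and Usp9y, the other Y-linked genes of the list on the array, on none. Xist, the X-inactivation transcript, passed on 2 arrays with signals no higher than 18.4. MHC class I transcripts were high, with H2-D1 at 5512, 5685, 5816 and 6449.9 and H2-K1 at 4035, 4387, 5717 and 6178. These class I genes are close relatives and their probes may cross-react. Class II genes H2-Ab1 and H2-Eb1 passed on 2 arrays each and Cd86 on none.

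**Figure D3:**
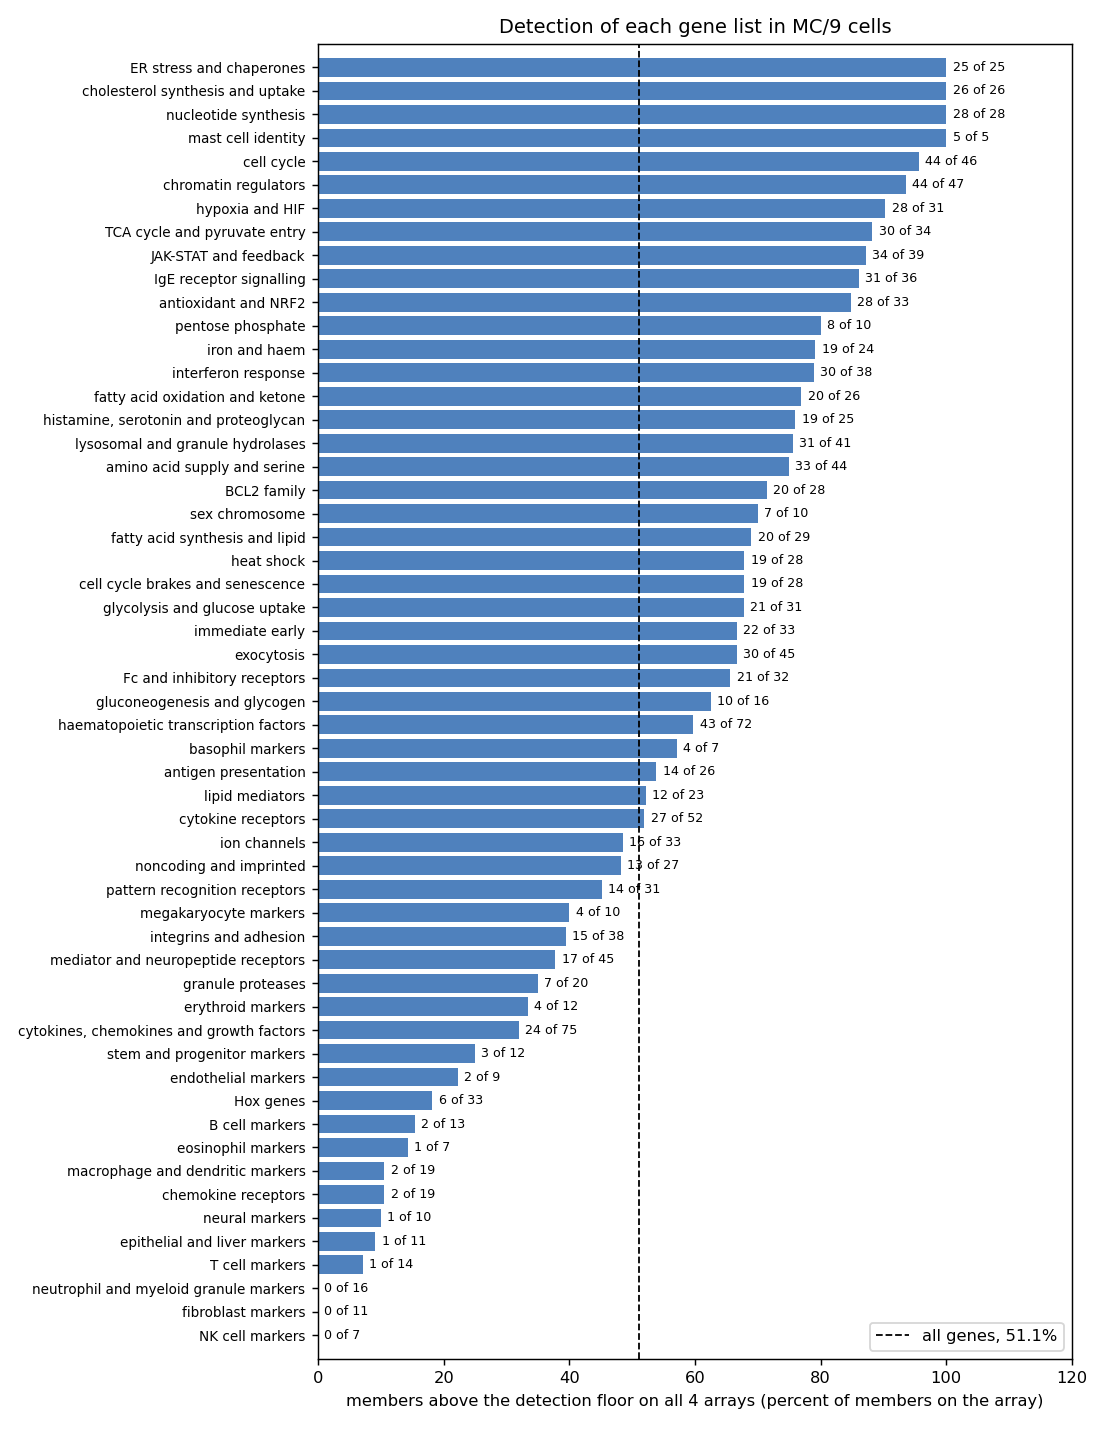
Percent of each list's members on the array (horizontal axis) that lay above the detection floor on all 4 MC/9 arrays, with counts at the bar ends. The dashed line is the 51.1% of all named genes. Lists for endoplasmic reticulum chaperones, cholesterol and nucleotide synthesis and mast cell identity reached 100%, and NK, neutrophil and fibroblast markers 0%.

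Metabolic lists were measured in full or in larger part. Every gene of the nucleotide (28), cholesterol (26) and endoplasmic reticulum chaperone (25) lists passed on all 4 arrays, as did 44 of 46 cell cycle genes and 30 of 34 genes of the citric acid cycle and pyruvate entry. The shares were lower for glycolysis and glucose uptake (21 of 31), amino acid supply (33 of 44), fatty acid oxidation (20 of 26), fatty acid synthesis (20 of 29) and gluconeogenesis (10 of 16). Ldha, which makes lactate, read 5240.5, 5434, 6040.2 and 6649, and Aldoa, an aldolase, read 4496, 4605, 6637 and 6956. Pkm, the pyruvate kinase of growing cells, read 3055, 3044, 3751 and 4119.9, and the glucose transporters Slc2a1 and Slc2a3 read 1281 to 1933 and 1529 to 2301, against no array above the floor for Slc2a2 and Slc2a4. Hk1 and Hk2 were both measured, at 1121 to 1421 and 724 to 808. The enzymes of glucose production Pck1, G6pc, Fbp1 and Fbp2 were above the floor on no array, while the mitochondrial Pck2 read 318, 281, 295 and 252.

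Lipid synthesis was likewise prominent. Scd2, a stearoyl-CoA desaturase, read 4554, 4761, 5498 and 5750.5, Fasn, the fatty acid synthase, read 1781, 1766, 2290.1 and 1697, and Acly, which supplies cytosolic acetyl-CoA, read 1944, 1942, 2182 and 2270.4. Fdps, the farnesyl diphosphate synthase, read 4905, 5086, 5809 and 5985, and Hmgcs1, the first committed step of the mevalonate pathway, read 3657, 3536, 3055 and 3127. Cd36, Lpl, Fabp4 and Pparg, genes of fat uptake and storage, were above the floor on no array, as were Ppara and Ppargc1a. In amino acid metabolism the serine enzyme Phgdh passed on 2 arrays and Arg1, Arg2 and Ass1 on none, whereas Shmt2 read 781, 769.8, 1183 and 934 and Odc1, which makes putrescine, read 350.5, 375, 683 and 659. Iron storage and uptake were measured through Fth1, the ferritin heavy chain, at 4756, 4625, 6145 and 6881 and Tfrc, the transferrin receptor, at 1341, 1406, 1219 and 1195. Txn1, thioredoxin, read 2729, 2624, 4881 and 5062, higher on both date 2 arrays.

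Proliferation genes and most of their brakes were above the floor. Of 28 genes for cell cycle brakes and senescence, 19 passed on all 4 arrays and 7 on none. Ccnd2, a D-type cyclin, read 7262, 6562, 6959 and 7207, against 161, 180.0, 138 and 126 for Ccnd1. Pcna, the sliding clamp of DNA replication, read 4655, 4714, 5603 and 5813 and Mki67 read 2577, 2491, 3417 and 3923. Cdkn2a, Cdkn2b and Cdkn1c, inhibitors of cyclin-dependent kinases, and Tert, the telomerase catalytic subunit, were above the floor on no array, while Cdkn1a, Cdkn2c, Cdkn2d and Cdkn1b were above it on all 4, with Cdkn1b at 329, 336, 266 and 414. Among survival genes Mcl1 read 1082, 1069.8, 1247 and 1407, Bcl2 read 193, 183, 294 and 351 and Bcl2l1 read 97.6, 89.1, 128 and 79.8. Pmaip1, Hrk and Casp12 were under the floor on every array. Chromatin regulators passed at 44 of 47, with Dnmt1 at 840.2, 895, 1426 and 1403 and Ezh2 at 861, 896, 937 and 983, and Tet3, Hdac9 and Dnmt3l on no array.

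The 4 arrays fell into 2 pairs by hybridisation date. Pearson's r of log2 signal over all probe sets, which are not independent replicates, was 0.965 between the date 1 arrays and 0.973 between the date 2 arrays. Across dates it was 0.941 to 0.948. The median absolute log2 difference between arrays was 0.140 and 0.179 within dates and 0.364 to 0.396 between them. No pair held the same values throughout, so no array was a copy of another, and all 4 were used as the labelled replicates. Over genes above the floor on all 4 arrays, the median SD of log2 signal was 0.23 across the arrays and 0.13 within dates.

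Single genes ranged from near-constant to a severalfold spread within a date. The 10 genes with the smallest SD over the 4 arrays were Ostm1, Galns, Stk16, Nxf1, 5530601H04Rik, Naa35, Lta4h, Senp3, Zfp36l2 and Setdb1. Ostm1, a subunit of a lysosomal chloride transporter, read 565, 565, 565 and 559.8, and Zfp36l2, an mRNA decay factor, read 2296, 2297, 2289 and 2249.8. Galns, a lysosomal sulfatase, read 103, 104, 104 and 105. The 12 genes with the largest SD within dates were Tcl1b3, Rad1, Wipf2, Col7a1, Cwc25, Cenpb, Ankrd37, Cracr2b, Crtc1, Rpl39, Numbl and Cxcl1, with SDs of 0.72 to 1.02 on the log2 scale. Tcl1b3 read 89.98, 381, 345 and 333, with replicate 1 alone low. Rad1, a DNA damage clamp subunit, read 79.7, 84.98, 24.1 and 100.1, with replicate 3 alone low. Cenpb, a centromere protein, read 152, 129.7, 70.04 and 21.7, with both date 2 arrays lower and replicate 4 lowest. None of the 12 had a mean signal above 287, so these are dim to middling probe sets.

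Between the dates a large share of genes differed. With limma on log2(signal + 4), 1947 of 10021 genes tested (19.4%) were higher on date 2 and 1546 (15.4%) were lower, at an adjusted p under 0.05. These counts compare 2 arrays with 2, and the spread within dates may be technical. Without replicate 1 they were 1214 and 835, and without replicate 2 they were 1109 and 829. With 1 array left on a date, that array is assumed to vary like the 2 of the other date. The balance of directions turned with the scaling of the arrays. With the deposited scaling 55.7% of calls were higher on date 2, against 66.0% with quantile normalization, 79.4% with arrays scaled to the median of probe sets above the floor, 56.6% when the median of the background probe sets was subtracted, and 4.40% when the hybridisation controls set the scale. Higher and lower genes were 22.1% and 11.4% of those tested with quantile normalization, 34.4% and 8.93% with the median scaling, 19.5% and 15.0% with background subtraction, and 2.68% and 58.3% on the hybridisation-control scale. The median log2 difference over the tested genes was 0.01 as deposited, 0.14 with quantile normalization, 0.22 with the median scaling, 0.02 after background subtraction and -0.50 with the hybridisation controls. Changes are therefore named mainly where a gene passed in the same direction under all 5 scalings, which held for 269 genes higher (2.68%) and 677 lower (6.76%). A fit that pools the spread of all 8 arrays, exosome arrays included, called 2 genes higher (Iigp1 and Car9) and 9 lower (Fos, H3c4, H3c7, H3f3b, Lpar1, Malat1, Mcpt4, Tpsb2 and Trav6-3). Of the 66 genes whose date difference is named below, 57 were no longer called in that fit.

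Probe sets of the same gene did not always move together, and unnamed probe sets were lower more often. Of 1924 called genes with several tested probe sets, 421 (21.9%) had a probe set called in the opposite direction. Of the 3079 tested probe sets without a single symbol, 46.7% were lower on date 2 and 12.4% higher, while of all 21421 tested probe sets 27.5% were lower and 14.9% higher. Mt1, metallothionein 1, had a bright probe set at 2489, 1909, 3059.7 and 3168 and another at 222, 220.2, 2.78 and 2.52. The poly-A controls, the 3′ to 5′ ratios and the hybridisation controls moved with the date, as given above, and their part in the differences was not tested.

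**Figure D4:**
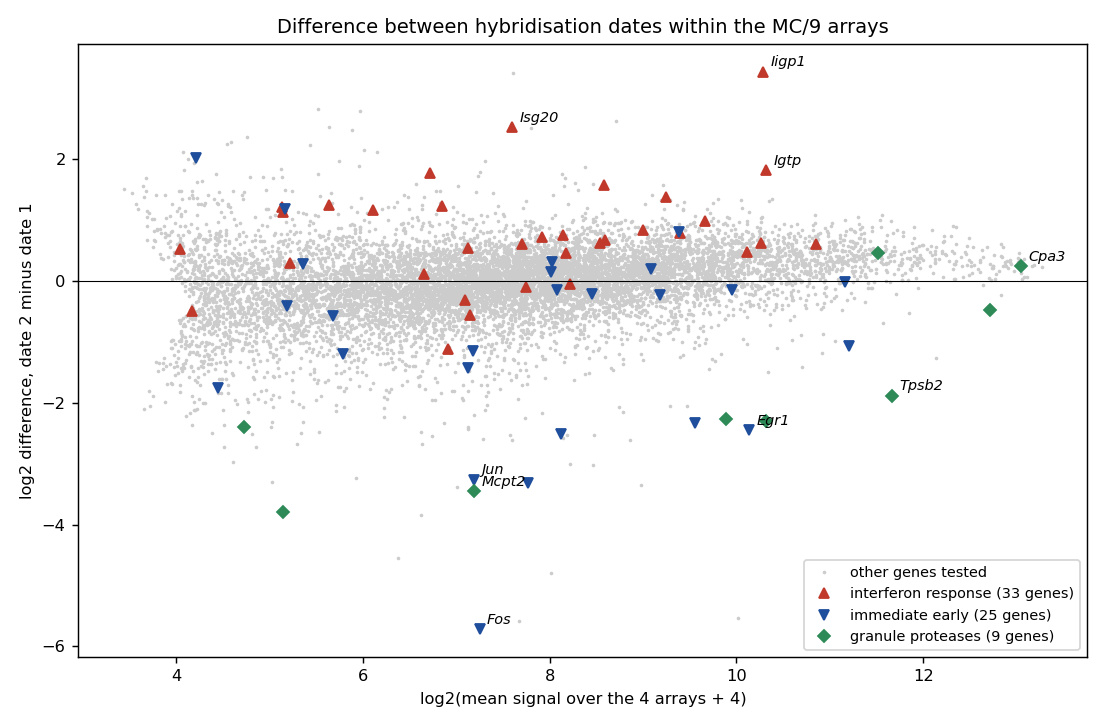
Log2 difference of each tested gene between the hybridisation dates (vertical axis, date 2 minus date 1) against its mean level (horizontal axis, log2 of mean signal + 4). Upward triangles mark the interferon-response list, downward triangles the immediate early list and diamonds the granule proteases. Most interferon-response genes lie above 0, and Fos, Jun, Egr1, Mcpt2 and Tpsb2 lie well below it.

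Many interferon-inducible genes rose on date 2. These genes are switched on by type I or type II interferons through STAT proteins, which bind short promoter elements called ISRE and GAS, and they act against viruses and intracellular bacteria. Of 33 tested members 24 rose and 2 fell, 11 of them rising and 1 falling under all 5 scalings, against 19.4% and 2.68% of all genes that rose. Only 30 members of the list were above the floor on all 4 arrays, so some of the 33 entered the test through 1 date. The list was also chosen with earlier results of these data known. The median log2 difference over the list was 0.67 as deposited and 0.14 to 0.89 under the other scalings. Iigp1, an immunity-related GTPase that attacks the vacuoles of parasites, read 211, 202, 2569 and 2007. It was higher on both date 2 arrays by 3.43 ± 0.12 (SE) on the log2 scale (limma, adjusted p = 6.92e-07), and its second probe set rose too, by 4.13. Igtp, another GTPase of the family, read 573, 547, 1997 and 1969 and rose by 1.82 ± 0.09 (adjusted p = 1.93e-06). Irgm1 read 277, 391, 756 and 981 and rose by 1.38. Gbp2, a guanylate-binding protein, read 181, 196, 613 and 529 and rose by 1.58. Isg20, an exonuclease, read 48.8, 58.4, 330.1 and 322 and rose by 2.52 (limma, adjusted p = 7.78e-06). Ifih1, the RNA sensor MDA5, read 46.1, 40.9, 180.3 and 139 and rose by 1.78. For each of these 6 the lowest date 2 array was above the highest date 1 array.

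Not every inducible gene followed. Stat2, a subunit of the type I interferon transcription factor, read 149.9, 172, 78.6 and 65.4 and fell by 1.12 on the log2 scale (adjusted p = 0.000825). Irf9, its partner, read 214, 220.0, 196 and 210.5 and did not pass. Ifit1, Ifit2 and Ifit3, strongly inducible by type I interferon, were each above the floor on 1 array, and Mx2 on none. Genes of antigen presentation rose in part, with 9 of 16 tested higher and 2 lower as deposited and 3 higher under all 5 scalings, against 19.4% and 2.68% of all genes that were higher. Of this list 14 genes were above the floor on all 4 arrays, so some of the 16 entered the test through 1 date. On the hybridisation-control scale the balance turned, to 3 higher and 6 lower. Nlrc5, the activator of MHC class I genes, read 128, 151, 391 and 449.7 and rose by 1.56. Tapbp, tapasin, read 1924, 2034, 4225 and 3684 and rose by 0.99, though another of its probe sets was called lower. Interferon receptor transcripts Ifngr1 and Ifnar1 read 87.02, 49.97, 51.7 and 70.1 and 271, 270.2, 198 and 229.8, and the ligand genes Ifng and Ifnb1 stayed under the floor on all 4 arrays.

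The promoters of 5 members that rose under all scalings are shown to let the ISRE and GAS letters be seen in place. Windows run from 250 bases before to 50 after an annotated start, from RefSeq (GRCm38.p6), 1 window per gene, and Iigp1 is not shown. ISRE was searched as GAAA, any 2 bases, then GAAA, and GAS as TTCNNNGAA on both strands, and matches are in capitals, with overlapping matches run together. The windows lie at chr7:78913174-78913473 (plus strand) for Isg20, chr11:58199306-58199605 (plus) for Igtp, chr2:62646206-62646505 (minus) for Ifih1, chr3:142620413-142620712 (plus) for Gbp2 and chr11:48871371-48871670 (minus) for Irgm1.
Isg20: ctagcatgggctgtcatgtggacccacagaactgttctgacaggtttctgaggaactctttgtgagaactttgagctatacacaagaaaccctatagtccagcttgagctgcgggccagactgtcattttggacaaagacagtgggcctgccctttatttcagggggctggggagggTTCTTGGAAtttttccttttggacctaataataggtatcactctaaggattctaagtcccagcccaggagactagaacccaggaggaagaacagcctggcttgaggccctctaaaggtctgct
Igtp: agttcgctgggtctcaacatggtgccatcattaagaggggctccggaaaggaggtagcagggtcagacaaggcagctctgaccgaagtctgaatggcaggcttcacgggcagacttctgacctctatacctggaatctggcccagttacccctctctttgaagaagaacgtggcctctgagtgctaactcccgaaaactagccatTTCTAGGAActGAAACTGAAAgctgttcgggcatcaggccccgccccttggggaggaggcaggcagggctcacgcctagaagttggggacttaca
Ifih1: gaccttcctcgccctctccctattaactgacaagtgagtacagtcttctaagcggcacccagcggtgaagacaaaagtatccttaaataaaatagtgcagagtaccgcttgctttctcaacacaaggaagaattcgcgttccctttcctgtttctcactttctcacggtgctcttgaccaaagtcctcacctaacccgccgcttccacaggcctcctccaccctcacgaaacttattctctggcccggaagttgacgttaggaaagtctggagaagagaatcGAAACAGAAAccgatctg
Gbp2: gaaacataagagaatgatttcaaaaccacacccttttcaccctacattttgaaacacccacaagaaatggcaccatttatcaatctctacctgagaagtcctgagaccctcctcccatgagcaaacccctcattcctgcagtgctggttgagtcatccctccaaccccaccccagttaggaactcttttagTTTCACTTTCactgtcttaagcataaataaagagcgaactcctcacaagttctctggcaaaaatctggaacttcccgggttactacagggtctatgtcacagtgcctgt
Irgm1: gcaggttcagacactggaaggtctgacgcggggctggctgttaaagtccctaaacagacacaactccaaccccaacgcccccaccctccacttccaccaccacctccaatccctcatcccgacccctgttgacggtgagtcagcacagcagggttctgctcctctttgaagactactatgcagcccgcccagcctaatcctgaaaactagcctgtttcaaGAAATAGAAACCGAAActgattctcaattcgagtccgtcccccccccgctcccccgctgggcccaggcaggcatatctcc

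Igtp held an ISRE match and a GAS match close together, starting 34 and 45 bases before the annotated start. Irgm1 held 2 overlapping ISRE matches, 30 and 24 bases before the start, Gbp2 had 1 on the other strand 59 bases before it, and that of Ifih1 began 33 bases into the transcript. Isg20 had no ISRE match in the window and 1 GAS match 73 bases before the start. Of the 24 members that rose, 22 had a window, of which 11 held the ISRE letters and 8 the GAS letters. Of all 27025 windows 3.49% held the ISRE letters and 8.47% the GAS letters. All 29 tested members with a window, risen or not, had 13 with ISRE, Stat2 and Eif2ak2 among them. Among the 8 immediate early genes that fell and had a window, 0 held ISRE and 1 held GAS. A match describes letters in this window and says nothing of binding.

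Immediate early genes, which are transcribed within minutes of a stimulus and whose RNA decays fast, went the other way. Of 25 tested, 11 fell on date 2 and 3 rose, with 9 and 2 under all 5 scalings, against 15.4% and 6.76% of all genes that fell. Fos was above the floor on date 1 alone and Fosl1 on date 2 alone, and each entered the test through that date. Fos read 324, 267, 1.85 and 1.52, and on date 2 it was under the floor on both arrays, at least 26.02-fold lower (limma, adjusted p = 8.09e-07). Jun read 256, 263, 28.7 and 19.04 and fell by 3.26 on the log2 scale (adjusted p = 9.07e-06). Junb read 478, 452, 118 and 51.7 and fell by 2.51. Egr1, a zinc finger factor, read 1899.7, 1900.5, 365 and 324 and fell by 2.45, and Ier2 read 1097, 1415, 264 and 226 and fell by 2.33. Nfkbiz, an atypical IκB protein, read 387, 394, 28.04 and 45.3 and fell by 3.31. In each of these 6 both date 2 arrays lay below both date 1 arrays. Others of the list were level or higher. Zfp36l2 was among the steadiest genes of the arrays, Klf6 read 487, 514, 545 and 609 and Nfkbia read 1054, 1030.5, 920.3 and 957, neither of which passed, although 2 other probe sets of Klf6 and 1 of Nfkbia were called lower. Nr4a2, an orphan nuclear receptor, read 16.9, 19.2, 42.4 and 49.1 and rose by 1.17, and Fosl1 read 4.37, 2.36, 28.8 and 22.9 and was at least 1.72-fold higher on date 2.

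**Figure D5:**
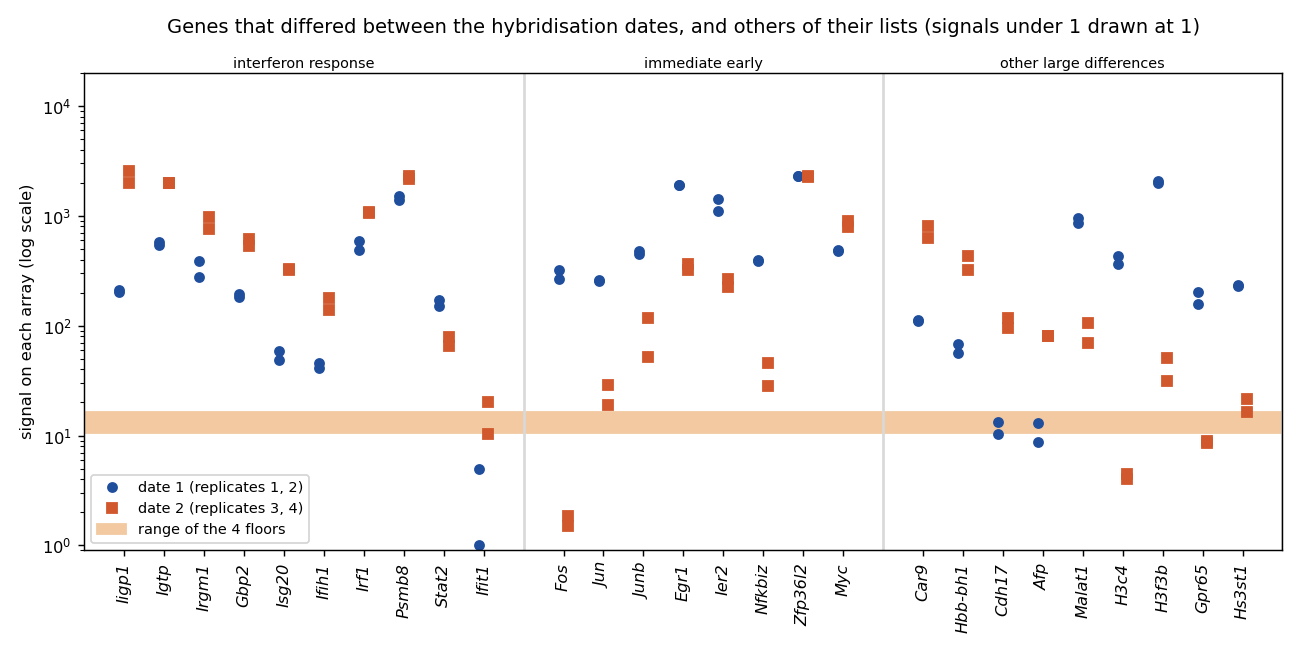
Signal on each array (vertical axis, deposited units, log scale) of genes of the interferon-response and immediate early lists and of other genes with large differences between dates. Circles are date 1 arrays, squares date 2 arrays, and the band is the range of the 4 floors. Iigp1, Isg20 and Car9 are higher on date 2, Fos and H3c4 drop below the floor on date 2, and Zfp36l2 stays level.

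Most of the tested granule proteases were lower on date 2. All 9 tested were called, 7 lower on date 2 and 2 higher, and the same 7 were lower under all 5 scalings. Of all tested genes 15.4% were lower and 19.4% higher as deposited, and 6.76% were lower under all 5 scalings. Mcpt4 and Mcpt8, among the 7, were above the floor on date 1 alone and entered the test through that date, where they were high. The lower genes Cma1, Mcpt2, Tpsb2, Tpsg1 and Gzmb were above the floor on all 4 arrays. Mcpt2 fell by 3.45 on the log2 scale (limma, adjusted p = 5.42e-06), Gzmb fell by 2.30 (adjusted p = 1e-05), Tpsg1 fell by 2.27 and Tpsb2 fell by 1.89 (adjusted p = 6.96e-07). Mcpt4 read 0.717 and 0.8 on date 2, under the floor, and was at least 5.49-fold lower, and Mcpt8 was at least 3.52-fold lower. Cma1 fell by 0.48. Cpa3 and Ctsc rose by 0.24 and 0.46 as deposited, but both turned with the scaling: on the hybridisation-control scale the differences were -0.30 and -0.07, and neither passed with quantile normalization. With replicate 1 left out, where the spread comes from date 2 alone, neither was called, nor was Cpa3 without replicate 2. Kit fell by 0.98 (adjusted p = 3.84e-05) on its brightest probe set and fell by 3.37 on another, which read 1158, 1408, 129 and 112. Fcer1a and Ms4a2 did not pass. In the amine list, Hs3st1, a heparan sulfate sulfotransferase, read 235, 227, 16.3 and 21.3 and fell by 3.38, and Slc6a4 fell by 2.61. Tph1, Ddc and Slc18a2 did not pass, and the 2 probe sets of Hdc were called in opposite directions.

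Receptors that fell under all 5 scalings included Ccr1, which fell by 2.68 (limma, adjusted p = 1.63e-05), Il10ra, which fell by 1.35, and Il4ra, which fell by 0.97. Il9r was at least 4.43-fold lower and Hrh4 at least 2.90-fold lower, both under the floor on date 2. Gpr65, a proton-sensing receptor, read 203, 156, 8.62 and 8.89, under the floor on date 2, and was at least 15.8-fold lower. Tnfrsf1b, a TNF receptor, went up, from 1.54 and 12.3 to 27.8 and 28.6, and was at least 1.89-fold higher, a call that was lost without replicate 1, in a fit whose spread comes from date 2 alone. Itga6, a laminin-binding integrin chain, rose by 1.34. Of the feedback regulators of cytokine signalling, Socs1 read 50.1, 77.6, 8.66 and 4.47 and was at least 5.52-fold lower, Socs2 read 204, 211, 52.9 and 51.2 and fell by 1.92, and Socs3 read 83.4, 80.5, 165 and 194 and rose by 1.09, so the 3 members of the family did not move together. Stat3 read 951, 974, 409 and 412 and fell by 1.22. Among secreted factors, Ccl2 fell by 1.19 and Il7, at 223, 200.4, 45.2 and 72.9, fell by 1.81, while Tnfsf14 (LIGHT), at 101, 99.8, 238 and 245, rose by 1.23.

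Cell cycle genes and several metabolic lists had more rises than falls on date 2, by amounts that the scaling could undo. Of 45 tested cell cycle genes 25 rose and 2 fell as deposited, and 3 rose and 0 fell under all 5 scalings, against 19.4% of all genes that rose as deposited and 2.68% under all 5. On the hybridisation-control scale 3 rose and 17 fell, where 58.3% of all genes fell. Aurkb, a mitotic kinase, read 206, 221, 436 and 430.0 and rose by 1.01, and Cdc20, a mitotic activator, read 1247, 1245, 2292 and 2448 and rose by 0.92, both under every scaling. The nucleotide list had 12 higher and 2 lower of 28 as deposited, against 19.4% and 15.4% of all genes. Under all 5 scalings it had 3 higher and 1 lower, against 2.68% and 6.76% of all genes. Its member Tyms, thymidylate synthase, went against the list, at 116, 118, 19.05 and 31.2, and fell by 2.09 (limma, adjusted p = 0.000195). The citric acid cycle list had 13 higher and 1 lower of 30, against 19.4% and 15.4% of all genes. On the hybridisation-control scale it had 3 higher and 14 lower, against 2.68% and 58.3% of all genes. The 3 that were higher under all scalings include the malate dehydrogenase Mdh2, which read 2582, 2548, 4689 and 4265 and rose by 0.80. The cholesterol list had 2 higher and 11 lower of 26, with 6 lower under all scalings, against 15.4% and 6.76% of all genes that were lower, and with the median scaling it was even, 6 higher and 6 lower. One that was lower under all scalings was Mvd, at 255, 223, 136 and 130.1, which fell by 0.83. The hypoxia list was split as deposited, 8 higher and 8 lower of 28, against 19.4% and 15.4% of all genes. Under all 5 scalings it had 3 higher and 7 lower, against 2.68% and 6.76% of all genes. On the hybridisation-control scale it had 3 higher and 16 lower, against 2.68% and 58.3% of all genes. Car9, a carbonic anhydrase induced by HIF, read 113, 110.1, 624 and 809.8 and rose by 2.63 ± 0.14 (SE; adjusted p = 4.67e-06). The collagen hydroxylases P4ha1 and Plod2, also HIF targets, read 391, 413, 147 and 168 and 156, 151, 41.1 and 43.2 and fell by 1.33 and 1.77. Cpox and Urod, enzymes of haem synthesis, read 133, 129, 401 and 469 and 701, 698, 1224 and 1292 and rose by 1.70 and 0.84.

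The 12 largest rises were Iigp1, BC023105, Jakmip1, Cdh17, Car9, Afp, Isg20, Hbb-bh1, Padi3, Itgb5, Dnph1 and Rhox5, and all 12 passed under the 5 scalings. Several are genes of other tissues. Cdh17, an intestinal cadherin, read 10.3, 13.2, 94.4 and 117, at least 7.05-fold higher on date 2. Afp, alpha-fetoprotein of the fetal liver, read 8.66, 13.1, 80.3 and 81.1, at least 5.42-fold higher, and its 3 other tested probe sets were called higher too. Neither was above the floor on a date 1 array. Hbb-bh1, an embryonic beta-like globin, read 67.6, 56.5, 319.9 and 432 and rose by 2.51 on 3 of 3 probe sets, and Hbb-y read 115, 127, 319 and 545 and rose by 1.75. The globin genes are similar in sequence, so their probe sets may share signal. Of the erythroid list, 3 of 5 tested rose, as deposited and under all 5 scalings, against 19.4% and 2.68% of all genes. The third was Klf1, an erythroid factor, at 73.9, 82.4, 165 and 161, which rose by 1.02, while Epor did not pass. Of the 11 epithelial and liver markers, whose summed signal on an array was 85.2 to 144, only Epcam passed on all 4 arrays, Alb and Hnf4a passed on 2 arrays each, and Ttr and Apoa1 were under the floor on each.

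The 12 largest falls were Fos, H3c4, H3f3b, H3c7, Trav6-3, Gpr65, Mcpt4, Mcpt2, Hs3st1, Malat1, Nfkbiz and Sox5, again all under the 5 scalings. H3c4 and H3c7 are replication-dependent histone genes, whose messages end in a stem-loop and normally carry no poly-A tail. H3c4 read 360.4, 429, 4.02 and 4.46 and was at least 34.8-fold lower on date 2, and H3c7 read 478, 512, 17.01 and 11.3 and fell by 4.80. H3f3b, a replacement histone H3 gene, read 2003, 2054, 31.1 and 50.8 on the 1 probe set tested and fell by 5.53. Malat1, a long RNA kept in the nucleus, read 962, 863, 69.3 and 107 and fell by 3.34, and 6 of its 7 tested probe sets were called lower. The probe set that was not called read 228, 220.5, 248 and 240.4. Neat1, another nuclear RNA, read 2159, 2141, 1082 and 1235 and fell by 0.89, while Gas5, a host of small nucleolar RNAs, read 2406, 2265, 3147 and 3223, no lower on date 2. Tet2, a DNA demethylation enzyme, read 362, 335, 59.4 and 82.1 and fell by 2.25 (adjusted p = 2.26e-05). The higher 3′ to 5′ ratio of Actb and the lower poly-A controls on date 2 were measured on the same arrays as these falls, and their part was not tested.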

How the data were processed

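The authors deposited signal intensities of Affymetrix Mouse430_2 arrays, made with GCOS per the submitters' processing notes, on a linear scale with a 2% trimmed mean of 100 on each array. No depth exists for an array, so the precision rests on 4 arrays. Of 45101 probe sets, 34945 had a single gene symbol in the platform annotation, 932 had several and 9160 none, and these last 2 kinds are unnamed. The 18193 named genes were each represented by the probe set with the highest mean over the 4 cell arrays. Hybridisation dates were read per the file headers. Differences between dates were tested with limma 3.58.1 in R 4.3.3 (lmFit, then eBayes with trend, Benjamini-Hochberg adjustment) on log2(signal + 4), over 21421 probe sets above the floor on both arrays of at least 1 date. A probe set above the floor on 1 date alone thus entered the test through the date where it was high. An exact permutation test of 2 against 2 cannot go below p = 0.333. A fold on this scale understates changes of low genes. Where one date was above the floor on no array, the bound is the brighter mean over the floor or the dimmer signal, whichever was higher on each array, from means of log2 values. SEs are limma's. The fit was tested on simulated data with independent noise of the size seen within dates and no shift shared by the probe sets of an array. That test therefore does not bear on the scaling of the arrays. Alternatives changed the floor, pseudocount, filter, scaling, variance trend and arrays used. The members and gene lists were chosen with earlier results of these data known. The text names list members, the 20 highest signals, the 12 largest rises and falls, up to 3 of each per list, the 12 most and 10 least variable genes. Further list members were named after their values were seen.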

Additional observations from a re-analysis of the deposited data

Results flagged for a closer look

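Of 206 genes and array measures with values in the text, 7 had 1 of the 4 arrays far from the other 3, by a gap above Dixon's 95% limit for 4 samples. Chance flags about 1 in 20 such groups. The B1 repeat control probe set read 1042 on replicate 3, against 3135, 3083 and 3030 on replicates 1, 2 and 4. Ddc read 1936 on replicate 4, and Fasn read 2290.1 on replicate 3. Ostm1 read 559.8 on replicate 4 and Zfp36l2 read 2249.8 on replicate 4, both among the 10 steadiest genes, so their gaps are small in size. Syk read 41.98 on replicate 2. Tcl1b3 read 89.98 on replicate 1, the largest spread within a date of the genes measured on every array.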

How the results depend on the processing

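The count of 9305 genes above the floor on all arrays was 8579 with the floor at the 99th percentile, 9473 with a floor at the median plus 3 MAD and 9382 to 9464 with 1 array left out. The 1947 genes higher and 1546 lower on date 2 became 269 and 5844 on the hybridisation-control scale, 3451 and 895 with the median scaling, and 2 and 9 with all 8 arrays in the fit. Without the variance trend 1009 were higher. With 1 array left out, 1109 to 1919 were higher and 829 to 1634 lower. Cpa3 reversed to -0.0019 with quantile normalization and to -0.30 on the hybridisation-control scale, and Ctsc to -0.075 on the latter. The cause of these shifts was not tested, apart from the wider spread of the 8-array fit. Of the 66 named date differences, 64 kept direction and call under quantile normalization and under hybridisation-control scaling. Genes were named mainly because they passed under every scaling, so this agreement follows largely from the choice and does not test the scaling. Without the trend 62 of the named differences kept direction and call, and with all 8 arrays 9 did. Some short lists moved by 1 gene with the floor at the 99th percentile. The T cell, neural, and epithelial and liver lists went from 1 to 0, and the chemokine receptor list from 2 to 1. Longer lists also lost members. The immediate early list went from 22 to 17 and the amine and proteoglycan list from 19 to 15. Fatty acid synthesis went from 20 to 17. No paired analysis was possible because the 2 dates share no replicate number. Signals near the floor limit which differences can be seen. With 2 arrays on each date, the spread is poorly known, and date, culture, extraction and fluidics station cannot be told apart.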
